A study of Homo sapiens with 4 samples.

Results

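Single-nucleus RNA sequencing was carried out on human enteric ganglioids, 3D cultures of the gut's nervous system, and 92 of 14812 annotated nuclei (0.621%) carried the class label epithelial in the deposited annotation. These 92 nuclei were taken by that label alone, with the nuclei marked as filtered left out (10494 of 25306 deposited), and were set against the other named classes: 6557 enteric neurons, 2892 nuclei of progenitor 1, 3800 of progenitor 2, 903 mesenchymal nuclei and 568 of a class named unknown. All ganglioids came from H9, 1 human embryonic stem cell line, which was induced to enteric neural crest, grown as free-floating crestospheres and matured in GDNF medium. There were 2 control samples and 2 samples given 2 µM PP121, which inhibits a range of receptor tyrosine kinases, in the medium from day 15 to day 20, and each sample was a pool of ganglioids from a differentiation of its own. The deposited annotation places replicate 1 of both groups at day 42 and replicate 2 at day 38. The study's methods give 1 day for all 4 samples instead, and the annotation's own sample column names both control files otherwise than the labels do, so the values within days given here rest on the annotation's day column alone.

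Most markers that define an epithelium were at or near the level of the other classes, which goes against the label. Epithelial cells are held together by the adhesion proteins EPCAM and E-cadherin (CDH1), and their cytoskeleton is built of keratins, of which KRT8 and KRT18 are the pair of simple epithelia. The 92 nuclei carried 761159 UMIs (unique molecular identifiers, each 1 counted RNA molecule), and among these EPCAM had 8, CDH1 had 20, KRT8 had 11 and KRT18 had 6. The genes that stood apart in these nuclei were instead SPON1, NTN1, SLIT1, CNTN4 and SHH, so the nuclei are called the annotated epithelial nuclei here, after their label, and no cell type is given to them.

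Control replicate 1 contributed 25 annotated epithelial nuclei with 200676 UMIs, control replicate 2 contributed 21 with 197028, PP121 replicate 1 contributed 9 with 64626, and PP121 replicate 2 contributed 37 with 298829. Their median depth per nucleus was 6980 to 7551 UMIs in the 4 samples, and 7145 overall against 5268.5 to 8375.5 in the other classes. Levels are given below as CPM, the counts of a gene scaled to a common total of UMIs, from the summed counts of a class in a sample, and 1 UMI was worth 3.35 to 15.5 CPM, most in PP121 replicate 1. Where 4 values follow each other, they stand for control 1, control 2, PP121 1 and PP121 2. Counting error alone therefore sets the limit for many genes named here. Between libraries, 4 to 15 cell barcodes were shared per pair, and none of the shared barcodes belonged to an annotated epithelial nucleus.

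EPCAM, an adhesion protein of epithelial surfaces, stood at 14.9, 5.08, 15.5 and 10.0 CPM. Its mean of 11.4 CPM was near the 6.76 to 9.43 CPM of the other classes. After each nucleus was thinned to 2000 UMIs, 3 of 91 annotated epithelial nuclei (3.30%, exact 95% interval 0.685 to 9.33) held an EPCAM UMI, against 0.891% to 1.59% of nuclei in the other classes. Without thinning the shares were 7.61% and 2.97% to 5.63%. Both shares were above those of the other classes. The thinned interval is wide, however, and held the share of enteric neurons (1.27%), which should lack the gene. With so few nuclei the EPCAM signal could therefore not be told from background.

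CDH1, the adherens junction cadherin, stood at 44.8, 45.7, 15.5 and 3.35 CPM and its mean was 27.3 CPM against 0 to 10.8 CPM elsewhere. Of the thinned nuclei 5.49% held it (interval 1.81 to 12.4), above the 0.306% of enteric neurons, and 15.2% against 1.16% did without thinning, so its signal was higher than this background. The control samples were the high ones, and the PP121 samples held 1 UMI each. KRT8 was at 0, 20.3, 30.9 and 16.7 CPM, and its mean of 17.0 CPM compared with 14.2 CPM in the unknown class and 12.9 CPM in mesenchymal nuclei. KRT18 was at 4.98, 5.08, 0 and 13.4 CPM. It had a higher mean, 10.1 CPM, in mesenchymal nuclei, from 33.6 CPM in control replicate 1 and at most 4.97 CPM in the other samples. Mesenchymal nuclei with several markers, described below, are part of that mean. KRT19, which the study's own annotation list pairs with CDH1 and EPCAM, had 11 UMIs, all of them in 1 nucleus of PP121 replicate 2. Of 15 keratins searched, 11 had no UMI, which allows a level of up to 3.94 CPM over all 92 nuclei, counting error only. As a background for such counts, 20490 of all 36601 features had a UMI in these nuclei.

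The markers also did not occur together. Among the 92 nuclei, 64 held no UMI of EPCAM, CDH1, KRT8, KRT18 or KRT19, 26 held 1 of the 5, 1 held 2, and 1 held 3 or more (1.09%, exact 95% interval 0.0275 to 5.91). That single nucleus came from PP121 replicate 2 and carried all 5 markers, with 21 marker UMIs and 10 UMIs of the desmosome gene DSP among its 7072 UMIs, and it had none of SPON1, SLIT1, NTN1 or CNTN4. Nuclei with at least 3 of the 5 markers were found as well among those annotated as mesenchymal, 7 of 903 (0.775%, interval 0.312 to 1.59), in all 4 samples. Those 7 carried 9 to 21 DSP UMIs and 1 to 6 UMIs of GRHL2, a transcription factor of epithelia. Of the 13 genes on the study's mesenchymal list, only COL1A2 and EDNRA were counted nucleus by nucleus here, so their values do not describe the whole list. COL1A2 had 2 UMIs in each of 2 of the 7 and none in the others, and EDNRA had none. The unknown class had 1 such nucleus, and the neurons and both progenitor classes had none. The cut of 3 markers was chosen after these values were seen.

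The wider lists also rested on low counts. Summed over the 4 working markers EPCAM, CDH1, KRT8 and KRT18, the level was 43.5 to 76.1 CPM in the 4 samples, against 13.5 to 92.5 CPM in mesenchymal nuclei and a mean of 26.2 CPM in the unknown class. The mean over the 4 samples, 61.6 CPM, was above that of every other class. Leaving out the single nucleus with all 5 markers brought PP121 replicate 2 to 10.3 CPM and the mean to 53.3 CPM, still the highest. The mesenchymal values given here, that of DSP included, keep the 7 nuclei with 3 or more markers. Those 7 held 156 of the 278 UMIs of the 5 markers in that class. Any of these 4 markers was found in 9.89% of thinned nuclei (interval 4.62 to 17.9), against 1.99% of enteric neurons and 3.54% of the unknown class, and in 30.4% against 7.35% and 16.2% without thinning. Desmosome genes summed to 171 CPM: PKP2, a desmosomal plaque protein, was at 19.9, 30.5, 30.9 and 43.5 CPM and above every other class in each sample, whereas DSP averaged 39.9 CPM against 43.8 CPM in mesenchymal nuclei. Of 21 tight junction and polarity genes, 17 had a UMI but none of the 5 with enough counts was highest here. The claudins CLDN1, CLDN3 and CLDN6 had no UMI, while most of the other claudins on the list (CLDN4, CLDN7, CLDN10 and CLDN12) had one. Of 15 epithelial transcription and splicing factors, 7 had no UMI, among them both ESRP1 and ESRP2, which splice epithelial transcripts. That count is not far from the background, since 20490 of all 36601 features had a UMI in these nuclei. The basement membrane list reached 1099 to 1873 CPM, mostly from DST, a cytoskeletal linker (542 to 1236 CPM), and the collagens COL4A5 and COL4A6, which were each higher in the unknown class.

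**Figure D1:**
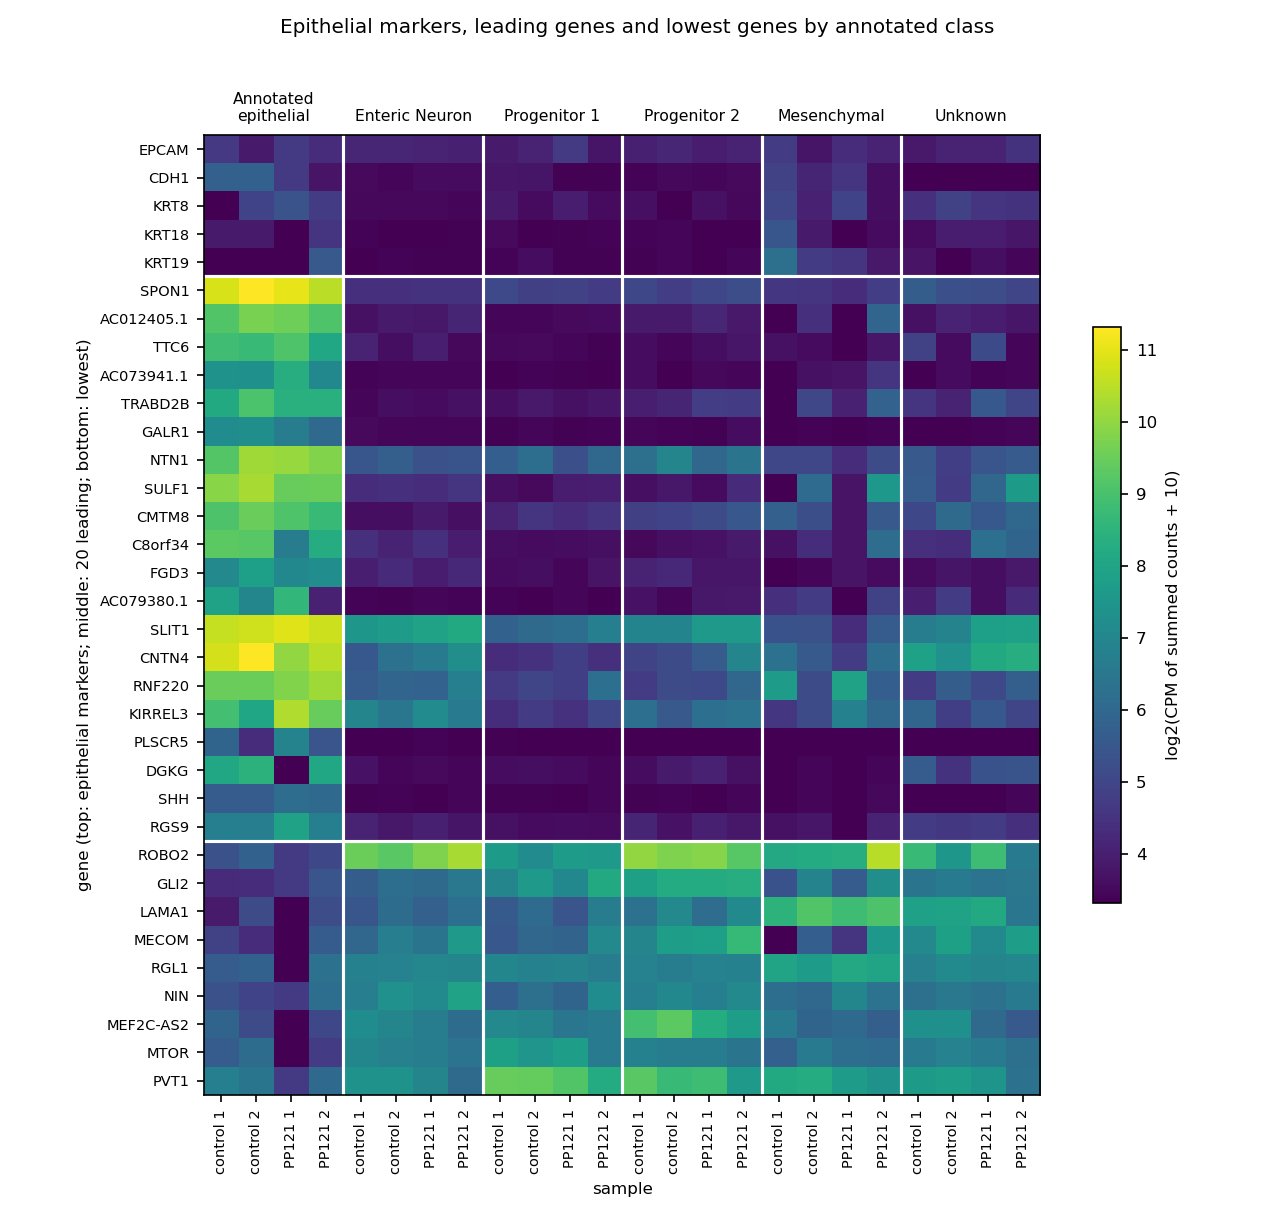
Colour gives log2(CPM of summed counts + 10) for each gene (rows) in each sample of each annotated class (columns, 4 samples a class). The 5 epithelial markers at the top are low in every class, the 20 leading genes in the middle are brightest in the first block, with DGKG and AC079380.1 each dark in 1 PP121 sample, and the lowest genes at the bottom are mostly darker there than in the other blocks.

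The genes that set these nuclei apart were described without a test, because the class was drawn from the same counts. Of 7343 genes with at least 20 UMIs in them, 13 (0.177%) were at least 4-fold above every other class in all 4 samples, with 10 CPM added to both levels: SPON1, AC012405.1, TTC6, AC073941.1, TRABD2B, GALR1, NTN1, CMTM8, FGD3, SLIT1, SHH, RGS9 and AC005062.1. By comparison, 1471 of the 7343 (20.0%) had a higher mean here than in any other class. The number depended on what was added to the levels, with 20 genes at 1 CPM and 6 at 50 CPM. The 20 genes of largest ratio to the next class are described below as the leading genes, each with 10 CPM added before the ratio was taken.

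SPON1 had the largest ratio, and it is described first with the other leading genes that act in axon guidance or adhesion, a grouping made after their values were seen. SPON1 encodes F-spondin, a secreted matrix protein that acts on axons, and stood at 1804, 2548, 2073 and 1422 CPM. In the unknown class, the next highest, its mean was 29.6 CPM, which put the log2 ratio at 5.64, and no sample of any other class was above 41.3 CPM. After thinning, 67.0% of the annotated epithelial nuclei held a SPON1 UMI (interval 56.4 to 76.5), against 1.96% of enteric neurons and 6.73% of the unknown class. NTN1, the axon guidance cue netrin-1, stood at 573, 1157, 1083 and 877 CPM, and progenitor 2 followed with a mean of 77.1 CPM (log2 ratio 3.42).

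SLIT1, a secreted ligand of the ROBO receptors, stood at 1545, 1710, 1950 and 1683 CPM. Enteric neurons followed with 224 CPM (log2 ratio 2.89). It had a UMI in 91 of the 92 nuclei and, after thinning, in 94.5% of them against 31.9% of enteric neurons and 20.3% of progenitor 2. Its relative SLIT2 averaged 1250 CPM but was higher in the unknown class, at 2389 CPM. CNTN4, an immunoglobulin adhesion molecule of axons, stood at 1789, 2517, 1021 and 1426 CPM, and the unknown class followed with 242 CPM. KIRREL3, another adhesion molecule of the immunoglobulin family, stood at 473, 259, 1315 and 699 CPM, against 104 CPM in enteric neurons.

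SHH, the ligand of the hedgehog pathway, had few counts but almost none anywhere else. It stood at 39.9, 40.6, 61.9 and 56.9 CPM from 8, 8, 4 and 17 UMIs, and no sample of any other class was above 1.15 CPM. Its 37 UMIs lay in 22 nuclei (23.9%, interval 15.6 to 33.9), against 0.336% of enteric neurons at full depth. After thinning the share was 7.69% against 0.0612%. FOXA2, a forkhead transcription factor, had 9 UMIs in 5 nuclei, from 3 of the 4 samples, and FOXA1 had 5 UMIs in 4 nuclei. SHH, FOXA1 and FOXA2 are on a list of 18 genes of gut endoderm and intestine, which was therefore not without counts. On the same list the transcription factors CDX1, CDX2, HNF4A, SOX17 and GATA4 had no UMI, where 20490 of all 36601 features had one.

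The window from 250 bases before to 50 bases after the transcription start is shown for SHH and SLIT1, 2 ligands among the leading genes. Both had a RefSeq promoter of build GRCh38.p14, and the windows of the other ligands are not shown. Both genes lie on the minus strand and the sequences are written 5′ to 3′ along it. The SHH window is at chr7:155812414-155812713 and the SLIT1 window at chr10:97185910-97186209. Capitals mark a match to one of 3 short motifs searched on both strands, TGTTTAC (forkhead), GACCACCCA (GLI, the effectors of hedgehog signalling) and ACAAAG (SOX).
SHH: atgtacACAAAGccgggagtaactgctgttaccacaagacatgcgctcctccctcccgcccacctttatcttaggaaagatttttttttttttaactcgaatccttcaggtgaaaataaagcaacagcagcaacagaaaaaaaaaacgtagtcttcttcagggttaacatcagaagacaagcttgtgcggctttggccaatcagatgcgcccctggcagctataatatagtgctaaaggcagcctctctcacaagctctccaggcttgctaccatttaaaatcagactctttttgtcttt
SLIT1: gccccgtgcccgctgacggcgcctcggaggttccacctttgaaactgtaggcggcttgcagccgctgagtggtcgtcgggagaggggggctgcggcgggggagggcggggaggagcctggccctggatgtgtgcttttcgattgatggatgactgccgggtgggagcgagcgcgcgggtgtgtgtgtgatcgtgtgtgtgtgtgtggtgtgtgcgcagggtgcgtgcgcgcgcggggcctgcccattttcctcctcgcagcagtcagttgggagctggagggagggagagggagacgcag
The SHH window held ACAAAG once, near its 5′ end, and the SLIT1 window held none of the 3. The windows also differed in base composition, with 7 CpG dinucleotides and 43.3% G and C for SHH, and 27 and 68% for SLIT1, beside a median of 14 CpG over 27305 promoters. Among the 13 leading genes with a promoter in the table, 1 (RNF220) held the forkhead motif, none the GLI motif and 3 (SHH, FGD3 and TTC6) the SOX motif, while 3.41% and 0.249% of all 27305 windows held the first and second, and 4368 of them held the SOX motif. A match of letters is a description of the window and was not tested as a binding site.

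Signalling and membrane genes made up most of the rest. SULF1, which trims sulfates from heparan sulfate outside the cell, stood at 942, 1223, 696 and 726 CPM, and the unknown class reached 75.7 CPM. TRABD2B, a membrane protease that cleaves Wnt proteins, stood at 279, 523, 325 and 331 CPM against 19.4 CPM in the unknown class. GALR1, a receptor for the neuropeptide galanin, stood at 140, 147, 92.8 and 56.9 CPM, and was at or below 2.01 CPM in every sample of the other classes. RGS9, which shortens G-protein signals, stood at 99.7, 96.4, 232 and 100.4 CPM. All 4 values of each of these genes were above all 20 values of the other classes. DGKG, a diacylglycerol kinase, had values of 259, 340 and 268 CPM in 3 samples and no UMI in PP121 replicate 1, which allows up to 46.4 CPM there. FGD3, an activator of the small GTPase CDC42, averaged 152 CPM, CMTM8, a small membrane protein, 546 CPM, RNF220, a ubiquitin ligase, 866 CPM, C8orf34 averaged 403 CPM, and PLSCR5, of the phospholipid scramblase family, 50.4 CPM from 29 UMIs.

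TTC6 and 3 long non-coding RNAs complete the 20. TTC6 lies on chromosome 14 (GRCh38, chr14:37595847-38041442, plus strand, GENCODE release 29) and overlaps the start of FOXA1, which is read from the other strand, and it stood at 458, 416, 542 and 264 CPM. AC073941.1 is an intergenic RNA at chr15:46693288-46804844, with SEMA6D as the nearest protein-coding gene, 379257 bases away, and averaged 186 CPM against at most 4.77 CPM. AC079380.1, at chr4:133871246-134010690, rested on few nuclei: 19 held it, and PP121 replicate 2 had 6.69 CPM where the other samples had 117 to 387. AC012405.1 stood at 563, 832, 743 and 542 CPM, and no location was matched for it. KIRREL3 and RNF220 overlap a neighbouring gene on the other strand in that annotation. DGKG overlaps ETV5 on the same strand, and SLIT1 shares its strand with a read-through transcript. Reads in the overlaps of DGKG and SLIT1 could belong to either gene.

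The genes with the smallest ratios had a lower mean than every other class, none by the full margin. Of 3219 genes with at least 50 CPM in the lowest of the other classes, none (0%) was at most 0.25 of every other class in all 4 samples, and the count was also 0 with 1 or 50 CPM added. ROBO2, a receptor for the SLIT ligands, came nearest, at 29.9, 45.7, 15.5 and 23.4 CPM against means of 180 CPM in progenitor 1 to 857 CPM in progenitor 2 (log2 ratio to the lowest class -2.30). GLI2, a transcription factor at the end of the hedgehog pathway, was at 9.97, 10.2, 15.5 and 33.5 CPM against 61.3 to 279 CPM. LAMA1, a laminin chain, averaged 14.3 CPM and MECOM, a zinc finger transcription factor, 17.6 CPM, beside 51.4 CPM and 59.3 CPM in their lowest other class. MECOM was not lower in every sample, with 19.9 CPM in control replicate 1 against 0 CPM in mesenchymal nuclei. RGL1, NIN, MEF2C-AS2, MTOR and PVT1 had log2 ratios of -1.20 to -0.88. Several of these rested on 0 UMIs in PP121 replicate 1, where 3 UMIs equal 46.4 CPM.

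The hedgehog and guidance pathways were read across their other members, using lists drawn up after values of these genes had been seen. Hedgehog signalling runs from the ligand through the receptor PTCH1 and the transducer SMO to the GLI factors, which switch on PTCH1 in turn. Of 20 genes of the pathway, 18 had a UMI, 12 had at least 20 UMIs, and 1, SHH, met the 4-fold rule (background 0.177%). PTCH1 was at 29.9, 20.3, 61.9 and 117 CPM, a mean of 57.3 CPM, against 155 CPM in progenitor 2, and GLI3 averaged 79.7 CPM against 391 CPM there. Of 17 netrin, slit, spondin and receptor genes, 3 met the rule, SPON1, NTN1 and SLIT1. The receptor DCC averaged 1007 CPM, below 2197 CPM in enteric neurons, and NEO1, a netrin receptor as well, averaged 344 CPM, with progenitor 2 next at 304 CPM. ROBO1 averaged 369 CPM and lay within the 246 to 1088 CPM of the other classes. The median log2 ratio to the highest other class was -0.68 for the hedgehog list and -0.71 for the guidance list, beside -0.40 over all 7343 genes.

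In their overall profile these nuclei were nearest to the progenitor 2 class. Over 14150 genes, the correlation of log2(CPM + 10) with the annotated epithelial mean was 0.901 for progenitor 2, 0.883 for the unknown class, 0.845 for progenitor 1, 0.837 for enteric neurons and 0.833 for mesenchymal nuclei. The points share libraries and differ in depth, so these values are a description. SOX2, a factor of neural progenitors, averaged 43.8 CPM against 47.8 and 58.9 CPM in progenitors 1 and 2, while PAX3 averaged 52.2 CPM against 247 and 721 CPM. VIM averaged 806 CPM, CDH2 439 CPM, and ZEB1, a repressor of CDH1, 239 CPM, the lowest mean of any class. HES1, a Notch target, stood at 169, 137, 124 and 110 CPM, with a mean of 135 CPM beside 140 CPM in mesenchymal nuclei and at most 88.5 CPM in the others.

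The lists of the other classes differed in level. The study's progenitor list summed to 721 to 873 CPM, against means of 817 CPM in progenitor 1 and 2081 CPM in progenitor 2. Of 11 genes on the study's enteric neuron list none was highest here, and the list summed to 920 to 3025 CPM against 7822 to 10785 CPM in enteric neurons. The highest sum was that of control replicate 2, where 1 nucleus held 200 of the 309 UMIs of NRXN3, a synaptic gene of that list. The mesenchymal list summed to 284 to 579 CPM against 4873 to 5514 CPM in mesenchymal nuclei, although PDGFRB, a receptor for platelet-derived growth factors, averaged 48.9 CPM, above all classes but the mesenchymal (334 CPM). PDGFC, one of their ligands, was at 374, 416, 402 and 325 CPM, above every sample of every other class, the next mean being 150 CPM in progenitor 2. Genes of motile cilia summed to 949 to 1242 CPM, against a mean of 3712 CPM in the unknown class. The endothelial list summed to 15.5 to 29.9 CPM, the melanocyte list to 9.97 to 33.5 CPM, and the blood and immune list had 2 UMIs in all. Glial and neural crest genes summed to 30.1 to 54.8 CPM, with no UMI of S100B or RET. Of 14 cell cycle genes 13 had a UMI. MKI67 had 25 UMIs in 11 nuclei and TOP2A 48 UMIs in 17. The annotation's phase calls put 18.5% of the nuclei in G2M, near the 18.7% of progenitor 2 and 17.6% of the unknown class. The other classes had 11.4% (enteric neurons), 11.8% (mesenchymal) and 31.5% (progenitor 1).

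**Figure D2:**
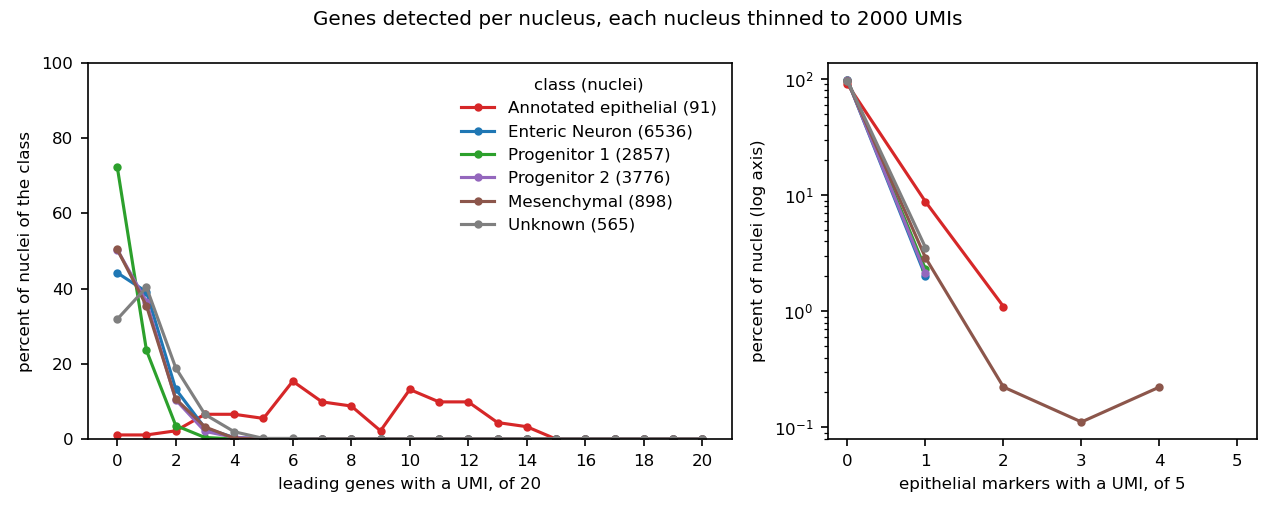
Each line gives, for 1 annotated class, the percent of nuclei by the number of the 20 leading genes with a UMI (left, linear axis) and of the 5 epithelial markers with a UMI (right, log axis), after every nucleus was thinned to 2000 UMIs. On the left, 82.4% of the 91 annotated epithelial nuclei hold 5 or more leading genes and at most 0.354% of any other class do. On the right, the nuclei that still hold 3 or more markers are mesenchymal ones.

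The leading genes occurred together in single nuclei. At 2000 UMIs, 75 of 91 annotated epithelial nuclei (82.4%) held at least 5 of the 20, the median being 8, whereas 3 of 6536 enteric neurons, 6 of 3776 nuclei of progenitor 2, 2 of 565 of the unknown class, and none of progenitor 1 or the mesenchymal class did. By sample the counts were 23 in control replicate 1, 20 in control replicate 2, 7 in PP121 replicate 1 and 25 in PP121 replicate 2. The 20 genes were chosen on these nuclei, so the share describes how even the class was and is not a test of it.

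Within the class the counts were uneven. SLIT1 was spread most widely, its 10 highest nuclei holding 24.9% of its UMIs, while the 10 highest for SPON1 held 49.7% and those for AC079380.1 held 87.6%. SPON1 was without a UMI in 17 nuclei, 11 of them in PP121 replicate 2, where its median was 2 UMIs per nucleus against 5, 12 and 7 in the other samples. CNTN4 had medians of 14 and 23 UMIs in the controls and 3 and 5 in the PP121 samples. NRXN3 had 309 UMIs in control replicate 2, 200 of them in the nucleus named above, and at most 67 in any other sample. Fixed lists of other cell types marked 5 nuclei as possible doublets, 3 in control replicate 1 and 2 in control replicate 2, and the 13 genes at 4-fold were the same without them. No doublet caller was run on so few nuclei.

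**Figure D3:**
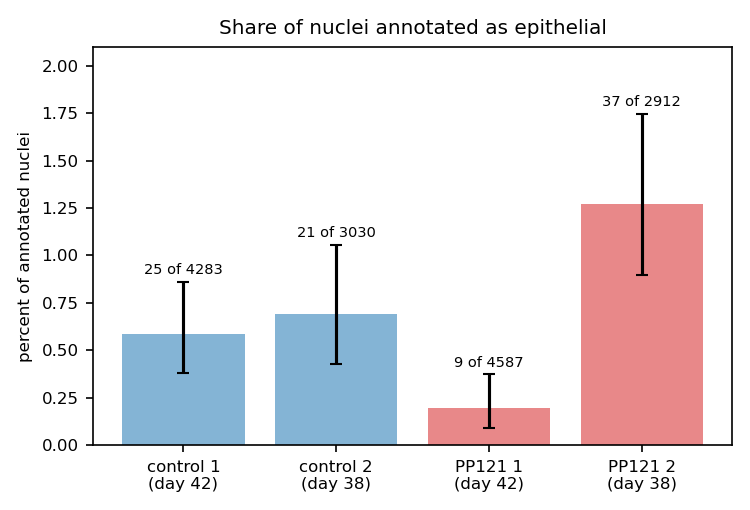
Bars give the percent of annotated nuclei labelled epithelial in each sample, with the count above, and error bars are exact 95% binomial intervals, which cover counting error only. The 2 controls lie between the 2 PP121 samples, at 0.584% and 0.693% against 0.196% and 1.27%.

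Whether PP121 changed the number of these nuclei was asked at the level of samples. They were 0.584% of annotated nuclei in control replicate 1 (exact 95% interval 0.378 to 0.860), 0.693% in control replicate 2 (0.430 to 1.06), 0.196% in PP121 replicate 1 (0.0898 to 0.372) and 1.27% in PP121 replicate 2 (0.896 to 1.75). The means were 0.638% ± 0.0773 (SD, n = 2) and 0.733% ± 0.760 (SD, n = 2), a difference of 0.0950 percentage points (two-sided exact permutation test, p = 1, with 0.333 the smallest p that 2 samples against 2 allow). Within days the difference was -0.387 points at day 42 and 0.578 points at day 38, so the samples did not move one way. The PP121 samples were the lowest and the highest of the 4, and the spread between them was larger than the difference between groups. A share of nuclei cannot tell more nuclei of this label from fewer of the others.

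Gene levels under PP121 were compared on the summed counts of the annotated epithelial nuclei, 2 samples against 2. Of 4871 genes tested, none (0%) passed an adjusted p of 0.05 in edgeR's quasi-likelihood test with Benjamini-Hochberg adjustment, the smallest adjusted p being 0.416, and 257 (5.28%) had an unadjusted p under 0.05. DESeq2 called 1 gene, AL132633.1 (adjusted p = 0.0493), with 82 at an unadjusted p under 0.05. The nuclei of PP121 replicate 1 were 9 in number, which limits what could be seen. The labels give the samples as separate differentiations, and p-values measure the spread between these 4 pools.

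**Figure D4:**
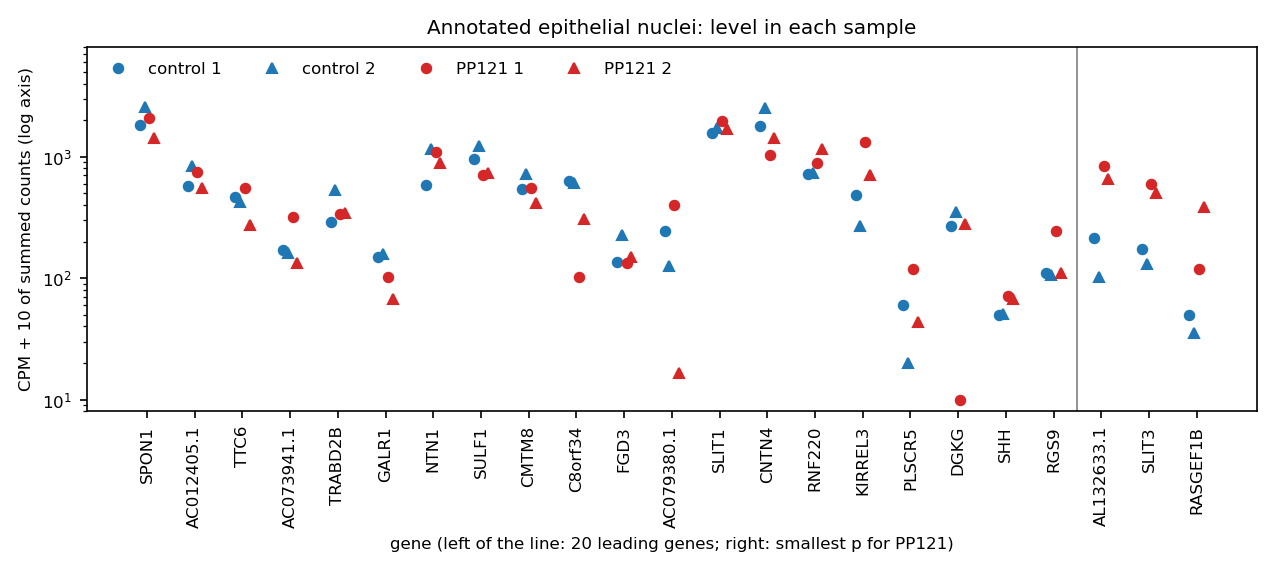
Points give CPM + 10 of the annotated epithelial nuclei's summed counts (log axis) in control replicates (blue) and PP121 replicates (red), with circles for replicate 1 and triangles for replicate 2. The 20 leading genes are left of the line, where red and blue are mostly mixed, and the 3 genes of smallest p are right of it, with both red points above both blue ones in each.

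The 3 genes of smallest p were higher with PP121 and none passed the adjusted threshold in edgeR with all 4 samples, whereas AL132633.1 passed in DESeq2, as given above. AL132633.1, an intergenic RNA on chromosome 14 (chr14:25916015-25998805), stood at 204 and 91.4 CPM in the controls and 820 and 643 CPM with PP121, a log2 difference of 2.22 ± 0.41 (SE, edgeR adjusted p = 0.416). In the other classes its values were 50.7 to 106 CPM in either group. The share of nuclei with its UMI was 52% and 52.4% in controls and 55.6% and 56.8% with PP121, and 1 nucleus held 42 of the 53 UMIs of PP121 replicate 1. It passed in edgeR without control replicate 1 (adjusted p = 0.000145), without PP121 replicate 1 (0.000242) and without PP121 replicate 2 (6.81e-05), and not without control replicate 2 (0.0804), each with a lone sample in 1 group.

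SLIT3, the third of the SLIT ligands, stood at 164 and 122 CPM in the controls and 588 and 495 CPM with PP121 (log2 difference 1.84 ± 0.35 SE, edgeR adjusted p = 0.416). In each of the 5 other classes SLIT3 was also higher with PP121 on both days, for instance at 84.1 and 229 CPM against 30.8 and 124 CPM in mesenchymal nuclei and at 14.4 and 45.2 CPM against 9.62 and 15.5 CPM in progenitor 2, and whether the difference was larger in the annotated epithelial nuclei was not tested. It was found in 44% and 47.6% of control nuclei and in 88.9% and 64.9% of PP121 nuclei. In each PP121 sample the nucleus of most UMIs held 55.3% and 41.9% of the SLIT3 UMIs, and without the deepest nucleus of each sample the log2 difference was 0.97 (adjusted p = 0.890). With 1 sample left out SLIT3 passed in edgeR without control replicate 1 (adjusted p = 0.0313), PP121 replicate 1 (0.0100) or PP121 replicate 2 (0.00764), and not without control replicate 2 (0.206). RASGEF1B, an exchange factor for RAP proteins, stood at 39.9 and 25.4 CPM against 108 and 378 CPM (log2 difference 2.99 ± 0.58 SE, edgeR adjusted p = 0.416). In PP121 replicate 1 all 7 of its UMIs lay in 1 nucleus, and in PP121 replicate 2 a single nucleus held 61 of 113. The share of nuclei with its UMI was 16% and 14.3% in controls and 11.1% and 18.9% with PP121. RASGEF1B was also higher with PP121 on both days in the unknown class and in enteric neurons (23.2 and 76.3 against 22.5 and 26.5 CPM). In both progenitor classes and mesenchymal nuclei the days differed in direction. RASGEF1B had a log2 difference of 1.66 without PP121 replicate 2. It passed in edgeR without control replicate 1 (adjusted p = 0.00204), control replicate 2 (0.0197) or PP121 replicate 1 (1.48e-08).

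The leading genes were tested in the same fit, PLSCR5 having too few counts. None of the 19 tested passed, 7 were higher and 12 lower with PP121, and 5 had an unadjusted p under 0.05, beside 5.28% of all genes. KIRREL3 was the higher one of these 5, at 1315 and 699 CPM with PP121 against 473 and 259 CPM (log2 difference 1.35 ± 0.40 SE, edgeR adjusted p = 0.711). C8orf34 at 92.8 and 298 CPM against 623 and 599 CPM (log2 difference -1.50), CNTN4 (-0.84), GALR1 (-1.14) and SULF1 (-0.65) were the lower ones. SPON1 had a log2 difference of -0.38 ± 0.28 SE, SLIT1 0.10 ± 0.25 SE, NTN1 0.12 ± 0.34 SE and SHH 0.48 ± 0.62 SE. Within days, 11 of the 20 leading genes had the same sign on day 42 and day 38, 5 higher and 6 lower.

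PP121 acts on receptor tyrosine kinases, and a list of 40 genes held such receptors, their ligands and other kinases. Of these 13 had enough counts, none passed, and their median log2 difference was 0.06 beside -0.01 over all 4871 genes. FGFR1, a receptor for fibroblast growth factors, was at 214 and 137 CPM in controls and 30.9 and 80.3 CPM with PP121 (log2 difference -1.45 ± 0.49 SE, edgeR adjusted p = 0.741), from 2 UMIs in PP121 replicate 1. VEGFA, a ligand on that list, was at 24.9 and 15.2 CPM against 61.9 and 70.3 CPM (1.66 ± 0.75 SE, adjusted p = 0.941 by edgeR). Neither EPCAM, CDH1 nor any keratin had enough counts to be tested. The study's mesenchymal list had 3 genes tested, FN1, LAMA4 and RUNX2, all lower with PP121 and none passing. The 8 tested genes of the hedgehog list had log2 differences above 0, without one passing, where 2417 of all 4871 genes did. DISP1 (0.04) and SUFU (0.05) were close to 0, and each was lower with PP121 on 1 of the 2 days. PTCH1 among the 8 had 6, 4, 4 and 35 UMIs in the 4 samples (log2 difference 1.91 ± 0.59 SE, edgeR adjusted p = 0.718). PTCH1 was also higher with PP121 on both days in enteric neurons and in progenitor 1 (77.6 and 183 against 56.1 and 85.5 CPM). It was lower on both days in the unknown class, and the days differed in progenitor 2 and mesenchymal nuclei. The hedgehog list was chosen after values were seen and its direction was not tested.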

How the data were processed

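Per the labels and the study's methods, single-nucleus libraries were made with a droplet 3′-end kit. The submitters' processing notes name Cell Ranger, Seurat 4.0.4 and build GRCh38, and the study's methods name kallisto and bustools. The authors deposited whole-number UMI counts per gene and nucleus for each sample, and an annotation with the class, day, phase and the percent of mitochondrial and ribosomal counts per nucleus. Nuclei that the annotation marks as filtered were left out, its classes were used as given, and no doublet caller was run.

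Counts of each class were summed per sample, and CPM was computed from the sums. Nuclei were thinned at random (seed 7) to 2000 UMIs for shares. Intervals are exact Clopper-Pearson, and counting error only is covered by intervals and by the limit of 3 counts. PP121 was compared with control by edgeR 4.0.16 (TMM, filterByExpr, quasi-likelihood test, Benjamini-Hochberg at 0.05) in R 4.3.3, after a test on simulated data, with DESeq2 1.42.0 as an alternative. The genes named were the 20 of largest and 10 of smallest ratio to the nearest class (at least 20 UMIs in at least 10 nuclei, or at least 50 CPM in the lowest other class), genes of 28 fixed lists, and, with no call under PP121, the 3 of smallest p. One gene that the rule names is not reported here. The members and lists were chosen with earlier results of these data known. Replicate numbers mark a shared day in the deposited annotation, and the differences between replicates 1 and 2 correlated between control and PP121 at r = 0.10 over 4871 genes. Annotated nuclei carried 23348045 to 34123759 UMIs per sample.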

Additional observations from a re-analysis of the deposited data

Results flagged for a closer look

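The share of annotated epithelial nuclei moved in opposite directions on the 2 days. It was lower with PP121 by 0.387 percentage points at day 42 (difference -0.387) and higher by 0.578 points at day 38. This difference between days was not tested, since each day holds 1 sample of each group.

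A few nuclei left out of the annotation also held the leading genes, at a share whose interval covers that of the unknown class (0.354%). Of 1511 such nuclei with at least 2000 UMIs, 8 held 5 or more of the 20 leading genes after thinning (0.529%, exact 95% interval 0.229 to 1.04), 1 in each control sample and 3 in each PP121 sample. Their median depth was 25454 UMIs, against 7145 in the annotated epithelial nuclei.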

How the results depend on the processing

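The PP121 difference in the share of these nuclei turned to -0.0890 points when enteric neurons were left out of the denominator, and leaving out 1 sample gave -0.442 to 0.632 points, the lowest without PP121 replicate 2 and the highest without PP121 replicate 1. With the replicate block the difference was 0.0950 points (exact sign-flip test over 2 pairs, p = 1) and the edgeR count was 0 genes (smallest adjusted p 0.0529), so the block changed no call. DESeq2 called 1 gene where edgeR called 0, and leaving out 1 sample gave 19 to 43 calls with the lone sample assumed to vary like the other group. The cause was not tested. The 13 genes at 4-fold became 20 with 1 CPM added and 6 with 50 CPM, as the added value sets how far low genes can reach, and leaving out 1 sample gave 14 to 17. The share of nuclei with any of 4 epithelial markers was 30.4% without thinning and 3.26% at 1000 UMIs, against 9.89% at 2000, a matter of depth. Of 290 recomputed ratios of 29 named genes, 266 moved by less than 1 SD between samples, 24 by more, and 0 changed sign. The 9 nuclei of PP121 replicate 1, where 1 UMI was worth 15.5 CPM, limit what could be seen of low genes.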

Other observations

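Among the 10494 nuclei marked as filtered, 4 carried 3 or more of EPCAM, CDH1, KRT8, KRT18 and KRT19, 1 in control replicate 1 and 3 in control replicate 2, and these 4 held 143 of the 623 marker UMIs of all filtered nuclei.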
